A study of Mus musculus with 2 samples.

Results

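The miR-29 family comprises the genes Mir29a, Mir29b-1, Mir29b-2 and Mir29c, chosen by gene symbol in GENCODE M21 as known regulators of collagen and other matrix genes. They are 4 of the 2202 microRNA genes counted. The series is 1 group of 2 microRNA-seq libraries from total RNA of whole adrenal gland of C57BL/6J mice, obtained from The Jackson Laboratory. The labels number the libraries as biological replicates 2 and 1, describe wild-type animals and give age and developmental stage as unknown. Sex is given as female in one label and as not collected in another. No treatment, transgene or allele is named. The libraries have separate tissue samples but share a donor identifier. Their differences may therefore be technical or lie between tissue samples, and an SD with n = 2 may not be a spread between animals. The p-values cover these libraries only.

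MicroRNAs are short RNAs cut from hairpin precursors. The seed, bases 2 to 8 of the mature strand, pairs with matching sites in messenger RNAs and lowers their output. The miR-29 family is known for repressing collagens, elastin and fibrillin, and the loss of miR-29 accompanies fibrosis in several organs. Its genes form a pair on each of 2 chromosomes. In the adrenal gland the collagen-rich capsule and the stroma between cortical cords are rich in such matrix.

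The mature 3p sequences are shown because they define the family. All 4 genes matched the RefSeq table (GRCm38.p6). Capitals mark the seed.

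mmu-miR-29a-3p: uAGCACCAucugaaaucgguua

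mmu-miR-29b-3p: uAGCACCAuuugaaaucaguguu

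mmu-miR-29c-3p: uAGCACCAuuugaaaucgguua

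The seed AGCACCA occurs in these 3 of 1679 named mouse mature sequences in the table and in no other. Counted from the 5′ end, miR-29a-3p and miR-29c-3p differ by 1 substitution, C10U, the miR-29a base given first. The first 17 bases of miR-29c-3p and miR-29b-3p are the same, and the substitutions G18A, U21G and A22U follow, with the miR-29c base first. The opposite arms of the hairpins have different seeds. They are shown because they are what separates the 2 miR-29b genes.

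mmu-miR-29a-5p: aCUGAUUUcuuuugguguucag

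mmu-miR-29b-1-5p: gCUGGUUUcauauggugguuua

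mmu-miR-29b-2-5p: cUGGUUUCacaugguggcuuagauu

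mmu-miR-29c-5p: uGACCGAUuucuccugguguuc

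Mir29b-1 and Mir29b-2 both make miR-29b-3p. Their hairpins are shown with the longest run they share, 25 bases, in capitals.

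Mir29b-1, chr6:31063023-31063093, minus strand: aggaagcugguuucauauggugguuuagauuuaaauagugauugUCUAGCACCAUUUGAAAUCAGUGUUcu

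Mir29b-2, chr1:195037040-195037120, plus strand: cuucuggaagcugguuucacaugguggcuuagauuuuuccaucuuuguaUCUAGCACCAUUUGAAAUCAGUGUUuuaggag

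The whole of miR-29b-3p lies inside the shared run. None of its 4 stretches of 20 bases is found in 1 hairpin alone, whereas all 3 stretches of 20 bases of miR-29a-3p, all 3 of miR-29c-3p, all 3 of miR-29b-1-5p and all 6 of miR-29b-2-5p are. The deposited tables hold reads with several alignments in a row of their own, 36.0% of the replicate 2 reads and 35.9% of the replicate 1 reads. How many of those reads are miR-29b-3p cannot be read from the tables. A read that lies wholly inside the shared run matches both hairpins, so it would stand in the row of reads with several alignments and in neither count. The counts of Mir29b-1 and Mir29b-2 are then other reads, such as those of the 5p arms or those reaching past the run. These counts are therefore uncertain as levels of miR-29b, and their make-up was not examined.

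Mir29a (ENSMUSG00000065610.1, chr6:31062660-31062747, mm10, minus strand) lies outside other annotated genes, 275 bases from Mir29b-1 (ENSMUSG00000065604.2). Mir29b-1 overlaps an exon of the long noncoding RNA gene Gm27019 on the same strand by 2 bases. The nearest protein-coding gene to Mir29a, Klf14, a zinc-finger transcription factor gene, is 103581 bases away. Mir29b-2 (ENSMUSG00000065412.3) and Mir29c (ENSMUSG00000065548.1, chr1:195037547-195037634, plus strand) are 426 bases apart, and both overlap exons of the noncoding transcript gene A330023F24Rik on the same strand. Both also lie opposite an exon of Cd46, which encodes a complement regulatory protein. No count fell on the strand opposite to any of the 4 genes in either library, so their counts on either strand equal those on their own strand.

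Depth was 6570375 counts on the strand of a microRNA gene in replicate 2 and 9137907 in replicate 1, which are 45.4% and 48.8% of the reads. CPM values below are counts per 1000000 of those totals. A count of 0 would allow up to 0.457 CPM in replicate 2 and 0.328 CPM in replicate 1. Intervals and limits cover counting error only. The label was set against marker microRNAs of other tissues, as no microRNA was listed as defining the adrenal cortex. Mir375, known from neuroendocrine cells such as those of the medulla, had 48617 and 50274 CPM in replicates 2 and 1. In its list of 10 neuroendocrine and neural genes, Mir7b had 2834 and 3385 CPM in replicates 2 and 1. Mir7-1 had 275 and 272 CPM, and Mir7-2 had 78.5 and 132 CPM. Mir7-1 and Mir7-2 are copies of the same name, so their counts may leave out reads with several alignments. The 3 Mir124a and 3 Mir9 genes of that list were at 0. The striated muscle list, 10 genes, summed to 6.39 and 5.36 CPM, with 6 genes at 0. Of all these genes at 0, only Mir208a and Mir208b have no copy of the same name, and a 0 of the others is not informative, since reads with several alignments are not counted. Markers of other tissues were present, with liver Mir122 at 71.5 and 128 CPM, the kidney list at 118 and 112 CPM and the epithelial list at 741 and 728 CPM in sum. Mir203 alone held 688 and 678 CPM of the epithelial sum, and the next gene of that list, Mir200c, had 20.9 and 19.5 CPM.

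Mir29a carried most of the family's counts. It had 37622 counts in replicate 2, a level of 5726 CPM (95% Poisson interval 5668 to 5784). In replicate 1 it had 59919 counts, a level of 6557 CPM (6505 to 6610). Its intervals did not overlap between the libraries, and replicate 1 was the higher. Mean level was 6142 ± 588 CPM (SD, n = 2), rank 30 of all genes.

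Mir29c, which differs from Mir29a in the mature 3p strand by a single base outside the seed, came next. It had 5128 counts in replicate 2, or 780 CPM (759 to 802), and 7287 counts in replicate 1, or 797 CPM (779 to 816). The libraries' intervals overlapped. The mean level was 789 ± 12.0 CPM (SD, n = 2), rank 86.

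The miR-29b genes were lowest, in counts that leave out reads matching both of their hairpins. Mir29b-1 had 412 counts in replicate 2, or 62.7 CPM (56.8 to 69.1), and 588 counts in replicate 1, or 64.3 CPM (59.3 to 69.8). Mir29b-2 had 217 counts in replicate 2, or 33.0 CPM (28.8 to 37.7), and 246 counts in replicate 1, or 26.9 CPM (23.7 to 30.5). For both genes the intervals of the libraries overlapped. The means were 63.5 ± 1.16 CPM, rank 201, and 30.0 ± 4.32 CPM, rank 238 (SD, n = 2 each).

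**Figure D1:**
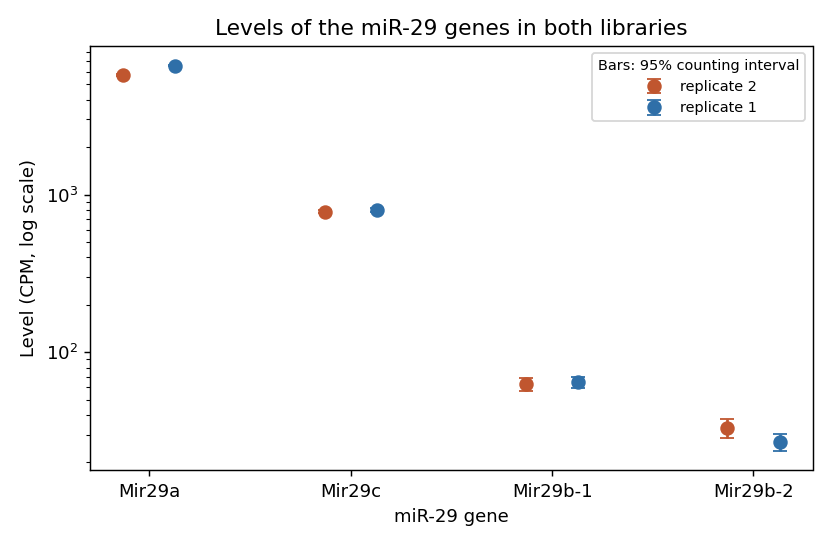
Levels of the miR-29 genes in CPM on a log axis, replicate 2 left and replicate 1 right for each gene, with 95% Poisson intervals as bars. The order Mir29a, Mir29c, Mir29b-1, Mir29b-2 was the same in both libraries, at 5726, 780, 62.7 and 33.0 CPM in replicate 2 and 6557, 797, 64.3 and 26.9 CPM in replicate 1.

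In this order the gaps between neighbours exceeded the spread between the libraries at every step. Reads were taken to cover a whole mature strand, though read length was not examined, so levels were not divided by length in the values above. Per base of hairpin, Mir29a had 65.1 and 74.5 CPM in replicates 2 and 1, Mir29c 8.87 and 9.06 CPM, Mir29b-1 0.883 and 0.906 CPM, and Mir29b-2 0.408 and 0.332 CPM. The order was the same on that scale. The place of the miR-29b genes in it does not include reads with several alignments.

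The family as a whole held 0.660% of the counts in replicate 2 (exact Clopper-Pearson 95% interval 0.654 to 0.666) and 0.745% in replicate 1 (0.739 to 0.750). Within it Mir29a made up 86.7% of the family's counts in replicate 2 (86.4 to 87.0) and 88.1% in replicate 1 (87.8 to 88.3). Mir29c made up 11.8% (11.5 to 12.1) and 10.7% (10.5 to 10.9). Mir29b-1 added 0.950% and 0.864%, and Mir29b-2 added 0.500% and 0.362%. These shares leave out miR-29b-3p reads that match both hairpins. The share of Mir29a was lower in replicate 2 and that of Mir29c was higher there, in both cases with intervals that did not overlap.

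Of all microRNA genes, 98.7% had a mean CPM no higher than that of Mir29a. The share was 96.1% for Mir29c, 90.9% for Mir29b-1 and 89.2% for Mir29b-2. Most microRNA genes had no count in either library. The means of 10 other genes lay within 1 SD of that of Mir29a, the larger SD of the 2 genes being used. The number was 18 for Mir29c, 23 for Mir29b-1 and 21 for Mir29b-2, so the exact ranks are not fixed by these data.

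**Figure D2:**
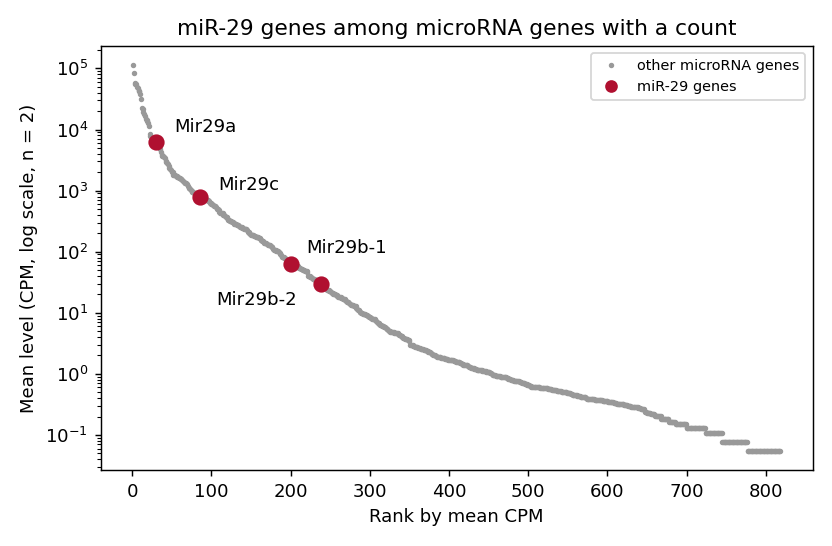
Mean CPM of every microRNA gene with a count, on a log axis, against its rank, with the miR-29 genes as large points. Mir29a, at rank 30, lies on the steep start of the curve, Mir29c is at rank 86, and Mir29b-1 and Mir29b-2 are at ranks 201 and 238.

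The genes nearest in level were found by the Euclidean distance between log2(CPM + 1) values over the 2 libraries, which says nothing about shared control. Nearest to Mir29a were Mir99b, at a distance of 0.13 with 5423 and 7065 CPM in replicates 2 and 1, and Mir191, at 0.32 with 6073 and 5309 CPM. Nearest to Mir29c were Mir532 (0.09, with 815 and 766 CPM) and Mir330 (0.10, with 728 and 813 CPM). Mir138-1 (0.06) and Mir92b (0.12) were nearest to Mir29b-1. Mir5121 (0.08) and Mir410 (0.13) were nearest to Mir29b-2.

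Genes of a pair lie close together, and the ratio of their counts within a library does not depend on how libraries are scaled. On chromosome 6, Mir29a had 91.3 counts per count of Mir29b-1 in replicate 2 (95% interval 82.9 to 101) and 102 in replicate 1 (94.0 to 111). On chromosome 1, Mir29c had 23.6 counts per count of Mir29b-2 in replicate 2 (20.6 to 27.2) and 29.6 in replicate 1 (26.1 to 33.8). In each pair the gene with its own mature 3p strand was far above the miR-29b gene, and the intervals of the libraries overlapped. Reads of miR-29b-3p with several alignments are missing from the lower side of both ratios.

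Across the loci, the chromosome 6 pair had 7.12 counts per count of the chromosome 1 pair in replicate 2 (6.91 to 7.32) and 8.03 in replicate 1 (7.84 to 8.23). Mir29a over Mir29c was 7.34 (7.13 to 7.56) in replicate 2 and 8.22 (8.03 to 8.43) in replicate 1. Both ratios were lower in replicate 2, with intervals that did not overlap. Mir29b-1 over Mir29b-2 was 1.90 (1.61 to 2.25) and 2.39 (2.06 to 2.79) in replicates 2 and 1, with overlapping intervals. Neither side of that ratio holds miR-29b-3p reads that match both hairpins. Mir29c over Mir29b-1 was 12.4 in both libraries.

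As all samples belong to 1 group, no condition can be contrasted. The libraries were compared with each other by an exact two-sided binomial test of each gene's counts against TMM-scaled library sizes, adjusted by the Benjamini-Hochberg method over 426 genes with 20 or more counts. Of these genes 56.1% passed an adjusted p of 0.05, 25.8% with a higher and 30.3% with a lower level in replicate 2. Scaled by total counts, 57% passed, 35.2% with a higher and 21.8% with a lower level there. All 4 miR-29 genes were tested and 2 passed, both lower in replicate 2. By total counts 1 passed. With 4 genes these counts are no result about the family. The share that passed over all genes depends on depth, at 28.5% without the filter on low counts and 85.9% among genes with a mean of 100 CPM or more. Mir29a was lower in replicate 2 by this test, with a log2 ratio of -0.30 (95% counting interval -0.32 to -0.28, adjusted p = 5.38e-219). Mir29c was lower there too, with a log2 ratio of -0.13 (-0.19 to -0.08, adjusted p = 1.02e-06 in the exact binomial test). Scaled by total counts Mir29c had a log2 ratio of -0.03 (-0.08 to 0.02) and no longer passed, so its call rests on the scaling.

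The miR-29b genes did not pass. Mir29b-1 had a log2 ratio of -0.14 (-0.33 to 0.04, adjusted p = 0.202, exact binomial test), and Mir29b-2 had 0.19 (-0.08 to 0.46, adjusted p = 0.231, exact binomial test). The interval of Mir29b-1 holds the log2 ratio of Mir29a, -0.30. That of Mir29b-2 does not, but it holds a difference of that size in the other direction. The median of the 4 log2 ratios was -0.14, against -0.03 over all 426 tested genes, whose quartiles were -0.33 and 0.26. By size, regardless of sign, 50.5% of tested genes had a smaller log2 ratio than Mir29a, 36.2% than Mir29b-2, 25.6% than Mir29b-1 and 24.6% than Mir29c. The difference of Mir29a was near the median size over tested genes, which was 0.29.

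**Figure D3:**
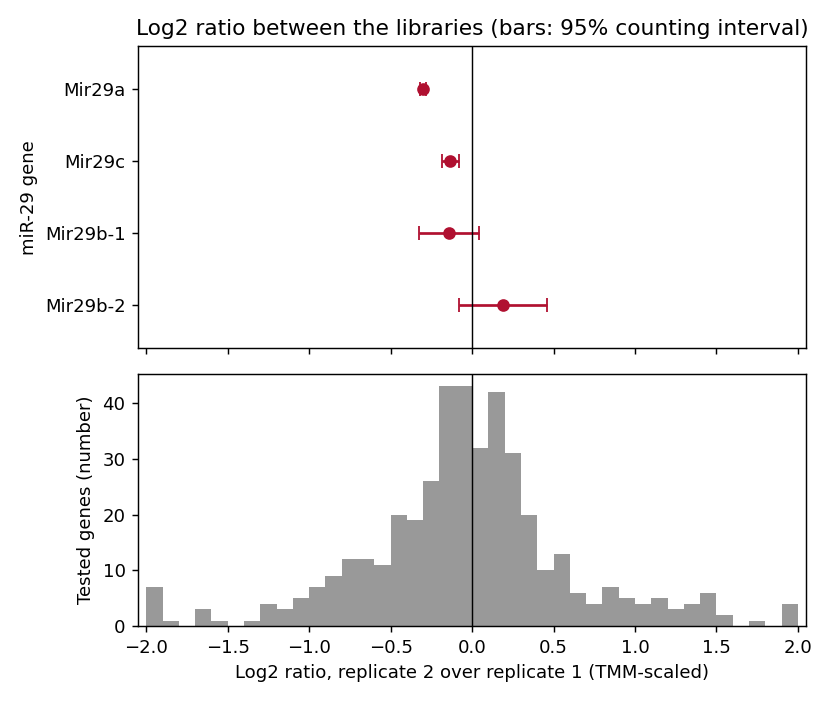
Log2 ratios of replicate 2 over replicate 1, TMM-scaled, for the miR-29 genes with 95% counting intervals (upper panel) and for all 426 tested genes as a histogram (lower panel), in which ratios beyond 2 in size stand in the end bars. The miR-29 genes, from -0.30 to 0.19, lie in the central part of the histogram.

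Other measures moved with the libraries. The fibroblast and mural marker list (7 genes, 5 with at least 10 counts in both libraries and none at 0) summed to 15035 CPM in replicate 2 and 18914 CPM in replicate 1. Mir143 and Mir214 were lower in replicate 2 and carried that sum, while Mir145a was higher there, at 1185 against 977 CPM. Mir199a-2 and Mir199b did not pass. The median log2 ratio of the 5 tested genes was 0.10. It is the value of Mir199a-2, which had 61 and 74 counts in replicates 2 and 1. That gene has a copy of the same name, so its counts may leave out reads with several alignments. The endothelial list (2 genes, of which Mir126b had 3 and 17 counts) summed to 54325 and 61679 CPM. The erythroid list (3 genes, none at 0) summed to 295 and 144 CPM. Mir451a held most of that difference, at 245 and 110 CPM, Mir486 was also higher in replicate 2, and Mir144 did not pass. The leukocyte list (7 genes, 1 at 0) differed less, at 3559 and 3237 CPM in sum and a median log2 ratio of -0.03. Replicate 2 also had fewer counted reads. Whether these differences have a part in that of Mir29a was not tested, and in RNA of a whole gland fewer cells of a type and less RNA per cell cannot be told apart.

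Of the other microRNAs known from fibrosis work, 25 genes were listed as lowering matrix genes or opposing fibrosis in other tissues, and 12 as raising them or rising with fibrosis. In the matrix-lowering list 19 genes were tested, of which 8 were higher in replicate 2, 7 were lower and 4 did not pass. By total counts 8 were higher, 6 were lower and 5 did not pass. Over all 426 tested genes 56.1% passed, 25.8% higher and 30.3% lower in replicate 2. By total counts 57% passed, 35.2% higher and 21.8% lower. Among genes with a mean of 100 CPM or more 85.9% passed. The counts of this list are a description and no result about it. The median log2 ratio of the list was -0.0035, and 0.10 by total counts. Its leading genes by mean level were Mirlet7d (39823 and 46149 CPM in replicates 2 and 1), Mir30d (11082 and 4015 CPM) and Mir30a (6343 and 4847 CPM). Mir29a thus had a mean between those of Mir30d and Mir30a, at 6142 CPM against 7548 ± 4997 and 5595 ± 1058 CPM, and these means lay within 1 SD of each other. Mir133a-1 and Mir133a-2 were at 0, but both make miR-133a, so reads with several alignments may hold it. Other genes of this list, such as Mir24-1 and Mir26a-2, also have copies of the same name. Their counts may leave out such reads, and the numbers that passed and the median of the list rest in part on them.

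In the matrix-raising list 11 of 12 genes were tested. In replicate 2, 4 were higher and 4 were lower, and 3 did not pass, at a median log2 ratio of 0.10. By total counts 5 were higher, 2 were lower and 4 did not pass, at a median of 0.20. Over all tested genes 56.1% passed, and 57% by total counts. The counts of this list, too, are a description and no result about it. The median of 0.10 is again the value of Mir199a-2. Some genes of this list have copies of the same name, so their counts may leave out reads with several alignments. Mir21a, which is induced in fibrosis of several organs, led with 29277 CPM in replicate 2 and 9066 CPM in replicate 1, a log2 ratio of 1.59. Mir34a, a p53-responsive microRNA, had 4109 and 3197 CPM, and Mir433 had 2193 and 2089 CPM. The summed level of this list was 39365 CPM in replicate 2 and 18923 CPM in replicate 1, the difference being mostly Mir21a, while that of the miR-29 genes was 6602 and 7446 CPM.

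**Figure D4:**
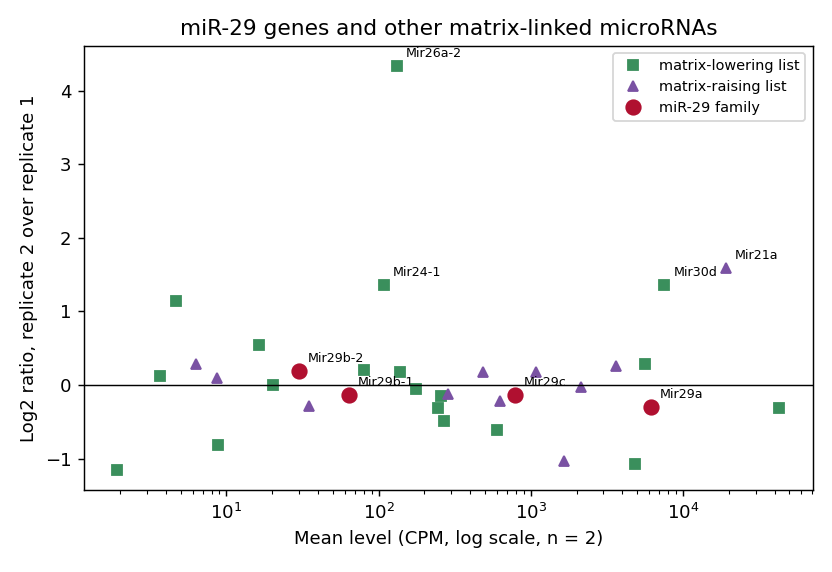
Log2 ratio of replicate 2 over replicate 1 against mean CPM (log axis) for the tested genes of the miR-29 family, the matrix-lowering list and the matrix-raising list. The miR-29 genes lie between -0.30 and 0.19. Mir26a-2, Mir21a, Mir30d and Mir24-1 lie above 1.3, and Mir200a, Mir30e and Mir214 lie below -1. Mir200a had only 8 and 24 counts in replicates 2 and 1 and did not pass. Mir26a-2 and Mir24-1 each have a copy of the same name, so their counts may leave out reads with several alignments. Their ratios are therefore uncertain as those of the microRNAs.

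The seed pairs with the letters TGGTGCT in a messenger RNA. This motif was searched on the transcript strand only, in the longest annotated 3′ UTR of each protein-coding gene of GENCODE M21. The 24 matrix genes searched were listed as known or likely miR-29 targets, so their count is a description and no independent evidence. Of these, 19 (79.2%) hold the motif at least once and 9 hold it 2 times or more, against 13.1% and 2.02% of 20957 protein-coding genes. Of windows of 300 bases, 28.9% (28 of 97) hold it in the matrix genes and 3.12% in all genes. A match is a run of letters, not a shown site of action, and messenger RNA was not measured in these libraries.

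The 3 genes of the list with the most matches are shown, with all their matches. Ties were settled by the number of matches followed by an A. Col5a1, a chain of the fibrillar type V collagen, holds 4 matches. Col4a5, a chain of basement membrane collagen, holds 3, and so does Eln, the elastin gene. Capitals mark the motif, written 5′ to 3′.

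Col5a1, base 988 of the 3′ UTR: ctatgaacattTGGTGCTgaat

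Col5a1, base 1018: cttgtctcttgTGGTGCTatgt

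Col5a1, base 1334: ctgaatgtttgTGGTGCTaatc

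Col5a1, base 1706: gagagtcactcTGGTGCTtgtg

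Col4a5, base 129: gctcccaccaaTGGTGCTaata

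Col4a5, base 410: attctttttcaTGGTGCTacta

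Col4a5, base 833: tcttattattcTGGTGCTatgc

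Eln, base 38: ctcatcaacgtTGGTGCTactg

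Eln, base 285: ccaagggaaatTGGTGCTacat

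Eln, base 298: gtgctacatgtTGGTGCTtctt

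Positions count from the first base after the stop codon to the first base of the motif. All 3 matches in Col4a5 are followed by an A. So are 20 of the 34 matches in the list, and 629 of the 3289 matches over all protein-coding genes. Since the seed is the same in all 3 mature 3p strands, these matches do not tell Mir29a, Mir29c and the miR-29b genes apart. Col1a1 and Col3a1, the main chains of fibrillar collagens I and III, each hold 1 match, and Fbn1, the fibrillin gene, holds 2. Col1a2, Nid1, Nid2, Serpinh1 and Sparc hold none in these 3′ UTRs.

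**Figure D5:**
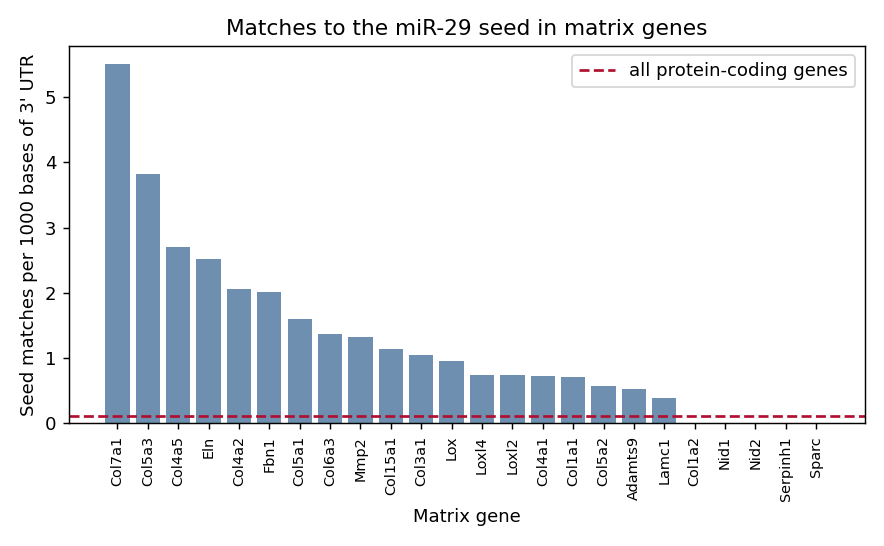
Matches to TGGTGCT per 1000 bases of the longest annotated 3′ UTR for the 24 matrix genes (bars), with the value over all protein-coding genes, 0.106, as a dashed line. Col7a1 is the highest at 5.51, and 5 genes are at 0.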

How the data were processed

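The deposited tables, 1 for each library, hold the authors' raw counts of reads per microRNA gene, made on mm10 with GENCODE M21 per their deposited description. Adapters were trimmed, per the labels' protocols. Neither aligner nor counter is stated in the sources used here. The 3 count columns are unnamed. The second was read as holding the gene's own strand and the third the opposite strand, from their values and layout, and 4 rows that name no gene (54.6% of replicate 2 reads and 51.2% of replicate 1 reads) were left out of library sizes. All 2202 identifiers matched the annotation. A count covers a whole hairpin and does not tell its arms apart.

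The members, lists and tests were chosen with earlier results of these data known. Genes named are the members, the 2 nearest genes of each, the 3 highest of each list and counts of 5 or fewer; Mir24-1, Mir26a-2, Mir30e, Mir200a, Col1a1, Col3a1, Col7a1 and Fbn1 were named after their values were seen. Library sizes were scaled by TMM (edgeR 4.0.16, R 4.3.3), with 0.5 counts added in ratios; the binomial test (SciPy 1.17.1) was tested on simulated data. Alternatives were total counts, DESeq2 1.42.0 size factors, no count filter, either-strand counts, all reads as denominator, hairpin length and leaving out each library. The libraries differed far beyond counting error (likelihood-ratio chi-square 354612, 817 degrees of freedom), so they were kept as 2 samples.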

Additional observations from a re-analysis of the deposited data

How the results depend on the processing

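No paired analysis was possible because there is only 1 group. Of 60 recomputed values, over 14 results, 49 kept their direction and call, moved by less than 1 SD where there was no test, or, for the count of genes that differed, stayed within 1.5 times. Another 10 moved further and 1 lost its call. With total counts in place of TMM, Mir29c had a log2 ratio of -0.031 and an adjusted p of 0.349 in the exact binomial test (1.04e-07 to 0.349 over its alternatives), because TMM lowers all log2 ratios by 0.10. The log2 ratio of Mir29a stayed between -0.31 and -0.20. With all reads in the denominator the means were 2899.5 CPM for Mir29a, 372 for Mir29c, 29.9 for Mir29b-1 and 14.1 for Mir29b-2, and the family share was 0.332%. With the column of either-strand counts, whose total is smaller, they were 6761 CPM for Mir29a, 868 for Mir29c and 69.9 for Mir29b-1, and the share was 0.773%. Divided by hairpin length, Mir29b-1 made up 1.12% of the family in place of 0.907%. Leaving out either library moved no value by more than 1 SD, which 2 values cannot exceed by construction. Either-strand counts could not change the shares within the family, since no count fell opposite. Dropping the filter could change a call but not a log2 ratio. The 49 values include these cases, so their number is no measure of stability. Depth limits the log2 ratios of the miR-29b genes, at 217 to 588 counts.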

Other observations

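Of 1018 microRNA genes with mature and hairpin sequences in RefSeq, Mir29b-1 and Mir29b-2 belong to 54 that have a mature sequence found in more than 1 hairpin and another found in 1 alone. Of these 54 genes 39 (72.2%) reached 10 counts in each library, with a median of 62.1 CPM. Mir29b-1 had 63.5 CPM and Mir29b-2 had 30.0 CPM. Of 925 genes whose mature sequences are each found in 1 hairpin, as for Mir29a and Mir29c, 33.7% did, with a median of 68.6 CPM. Of 39 genes whose mature sequences all occur in several hairpins, 15.4% did, with a median of 16.2 CPM. Reads with several alignments outnumbered the counts of the miR-29 family by 120 times in replicate 2 and 98.8 times in replicate 1. Their split over genes is not in the tables.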
